A study of Mus musculus with 17 samples.

Results

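Foxp3+ CD4 T cells that arose in culture with dendritic cells (DC) of the gut lamina propria were compared with those that arose with DC of the spleen, without added retinoic acid. The comparison holds 4 of the series' 17 arrays, 2 per kind of DC, chosen by their labels alone. Each array holds RNA of sorted T cells from 3 pooled male C57BL/6-Foxp3/GFP mice aged 6 to 10 weeks, a strain in which green fluorescent protein reports the Treg factor Foxp3. In all 4 cultures the starting cells were CD4+Foxp3- T cells from spleen, stimulated for 5 days at 10 T cells per DC with anti-CD3 (1 µg/ml), TGF-beta (0.6 ng/ml) and IL-2 (5 ng/ml), so that only the source of the DC differed. The cells were then sorted as CD4+ and GFP+. The Foxp3- cells left behind in the same kinds of culture (2 arrays per DC source) and Foxp3+ cells raised with spleen DC plus 100 nM retinoic acid (2 arrays) serve below as points of reference. A further array of Foxp3- cells raised with retinoic acid entered the statistical model only. Titles and sort fields give the same fraction for every array, although the source field of 3 of the 4 Foxp3+ arrays names Foxp3- cells, the kind that was put into culture.

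TGF-beta together with T cell receptor and IL-2 signals turns on Foxp3 in naive CD4 T cells, which then take on suppressive functions. DC of the small intestine, above all those carrying CD103, are known to convert vitamin A to retinoic acid, a ligand of nuclear receptors that raises Foxp3 induction and switches on the gut-homing receptors alpha4beta7 integrin and CCR9. Spleen DC make little of it. The comparison shows how Foxp3+ T cells differ when gut DC take the place of spleen DC in an otherwise equal culture.

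Values are log2 of the deposited intensities, where 1 unit is a doubling. The Foxp3 probe set read 4.38 and 4.27 after lamina propria DC and 4.53 and 4.48 after spleen DC, below the array medians (5.89 to 5.94 over the co-culture arrays), so the transcript cannot check the sort. Gpr83, a receptor typical of Treg cells, read 10.16 and 9.84 in the Foxp3+ and 6.30 and 7.15 in the Foxp3- arrays after lamina propria DC, and 9.19 and 7.87 against 6.58 and 6.34 after spleen DC. Neither pair overlapped, and the gap was narrowest for the number 2 spleen array. Gpr83 is a single gene, and not all such genes parted the fractions. After spleen DC the Foxp3+ and Foxp3- readings of Nrp1 and Itgae, given below, overlapped. T cell genes were high on all 4 arrays (Cd3d 12.34 to 12.93, Cd4 9.26 to 9.55). Of 27 DC and macrophage markers 11 passed the filter on low values, among them Cst3 (8.25 to 8.78), Adgre1 (6.96 to 7.99) and Flt3 (6.29 to 6.72), while Itgax (5.51 to 5.58) and Xcr1 (5.14 to 5.41) lay below the array medians. Of 10 CD8 T and NK cell markers 6 passed it, among them Nkg7 (9.62 to 11.78), Eomes (8.91 to 9.74), Klrd1 (8.69 to 9.82) and Klrk1 (6.41 to 6.78). Ncr1 (5.24 to 5.45) lay below the medians. Any 2 co-culture arrays correlated at 0.94 to 0.99 across the tested genes, and no array stood apart from the rest.

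With the groups compared directly, no gene passed an adjusted p of 0.05 in limma (947 had an unadjusted p under 0.05, and the lowest adjusted p was 0.207). The array numbers 1 and 2 in the labels marked a shared deviation: arrays with the same number moved together after group means were removed (correlations of 0.45 to 0.75). With the number as a block in the same limma model, 215 of 11846 genes passed (1.81%), 139 higher (1.17%) and 76 lower (0.642%) after lamina propria DC. Of these, 114 differed at least 2-fold. "Rose" and "fell" below refer to this paired test, in lamina propria DC relative to spleen DC cultures. The paired calls rest largely on the number 2 arrays. Without the number 2 lamina propria array, Cd83 and Egr2 were the only genes that passed, and without the number 2 spleen array, Cd83, Lgals3 and AA467197. Without the number 1 lamina propria array 199 genes passed, 112 of them among the 215, and without the number 1 spleen array 451, with 167 of the 215. The 4 arrays on their own gave 0 calls (2516 with an unadjusted p under 0.05), so the other co-culture arrays supply the estimate of the spread. Averaging all probe sets of a gene left 16 calls, all of them among the 215. Labels do not say whether arrays came from separate cultures, so p-values measure the spread between these arrays.

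Cd83 was the one gene of the 215 that passed without any single one of the 4 arrays. It encodes an immunoglobulin-family surface protein of activated lymphocytes and mature DC. The lamina propria DC arrays read 8.06 and 8.08 and the spleen DC arrays 6.30 and 5.85, so the groups stood far apart. The rise of 2.00 ± 0.15 (log2, standard error, n = 2 against 2, 3.99-fold) had a limma adjusted p of 0.00268, and it ran from 1.82 to 2.18 with each array left out. Foxp3+ cells raised with retinoic acid read 6.71 and 6.52, below both lamina propria arrays (difference 1.45 ± 0.15, limma adjusted p = 0.00189 paired and 0.0765 unpaired). In the Foxp3- fraction the readings overlapped (5.91 and 5.36 against 5.63 and 5.44). Here and below, a bulk value cannot tell fewer cells with a transcript from less of it per cell.

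Of 30 tested factors that antigen receptor signals switch on, 2 rose (6.67%, against 1.17% of all genes), 0 fell, and the list's median difference was 0.15 against 0.01 over all genes. Egr2, a zinc-finger factor of the early growth response family, read 7.51 and 7.22 against 5.40 and 5.66. It rose by 1.84 ± 0.26 (limma adjusted p = 0.0243) and the retinoic acid arrays read 7.44 and 8.0. Its relatives Egr1 (1.06, limma adjusted p = 0.0682) and Egr3 (1.56, adjusted p = 0.0754) did not pass. The orphan nuclear receptor Nr4a3 rose by 1.38 ± 0.19, from 8.25 and 9.31 to 9.66 and 10.66. The groups did not overlap, number 2 arrays ran higher in both cultures, and the gap within each number was alike. Irf4, a factor that grades T cell activation, rose by 1.10 ± 0.20. It was the 1 gene of 10 in the Th17 list to pass (10%, against 1.17% of all genes).

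The 6 genes of this paragraph that rose belonged to no list and were picked after their values were seen, so they describe no pathway. Relb, an NF-kappaB subunit, rose by 1.00 ± 0.19, the kinase Ikbke by 0.99 and the adaptor Tank by 1.01. Genes of the NF-kappaB pathway in the list of antigen receptor factors did not pass (Nfkbia 0.47, Nfkbid 0.59, Nfkbiz 0.57, Rel 0.24 and Tnfaip3 -0.28). Sting1, the adaptor of cytosolic DNA sensing, rose by 1.09 ± 0.21. Icam1, the ligand of the integrin LFA-1, read 9.93 and 10.52 against 9.07 and 9.23, a rise of 1.08 ± 0.14 (limma adjusted p = 0.0211). Stx11, a syntaxin of granule release, rose by 1.15 ± 0.18. For both Icam1 and Stx11 the difference in the Foxp3- arrays was of the other sign (-0.02 and -0.36), but neither passed the test of the gap between fractions.

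A few surface receptors and ligands rose. Il7r, the IL-7 receptor alpha chain that keeps T cells alive at rest, was among the brightest genes and rose from 11.78 and 12.14 to 12.62 and 13.37, by 1.03 ± 0.13 (limma adjusted p = 0.0211). It was the 1 of 8 common-chain receptors that passed (12.5%, against 1.17% of all genes), and the list's median was -0.11. The Il7r difference in Foxp3- cells was the same size (1.04). Il27ra, the IL-27 receptor, rose by 0.71 ± 0.12 with 10.45 and 10.48 against 9.75 and 9.76. Il27ra is in none of the lists and was picked after its values were seen. Tnfsf10, the death ligand TRAIL, was the 1 of 23 TNF family members to pass (4.35%, list median 0.22). It read 10.79 and 10.48 against 9.69 and 8.11 (1.73 ± 0.32). Of 20 co-stimulatory and inhibitory receptors, 2 rose (10%, list median 0.20): Pdcd1lg2 (PD-L2, 1.03 ± 0.18) and Cd200 (0.76 ± 0.16).

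The largest rise was that of Abi3bp, an extracellular matrix protein, at 2.76 ± 0.56, from 4.41 and 3.68 to 6.49 and 7.14. As its spleen DC arrays lay near background, that size is a lower bound, as is the rise of Capsl (2.02). St8sia6, a sialyltransferase, read 10.84 and 11.34 against 9.29 and 8.73, a rise of 2.09 ± 0.29 that was 2.80 in Foxp3- cells. Together with St3gal2 (0.78) it rose while the fucosyltransferase Fut8 fell (-0.77), the 3 of 22 glycan enzymes to pass. The rises were 9.09% of the list, against 1.17% of all genes, and the fall 4.55%, against 0.642%. Lad1, a basement membrane protein gene, rose by 2.03 ± 0.40, mostly in the number 2 arrays (9.63 against 6.61, beside 7.61 against 6.58). Scin, an actin-severing protein, rose by 1.82 ± 0.27, Gm31718 by 1.80, the carboxypeptidase Cpm by 1.75, the adhesion protein Amigo2 by 1.74, the DNA ligase Lig4 by 1.55 and 1810073O08Rik by 1.54. The 139 genes that rose did so by a median of 0.96, and 131 of them had no overlap between groups, a pattern that 20.1% of all tested genes showed in this direction.

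**Figure D1:**
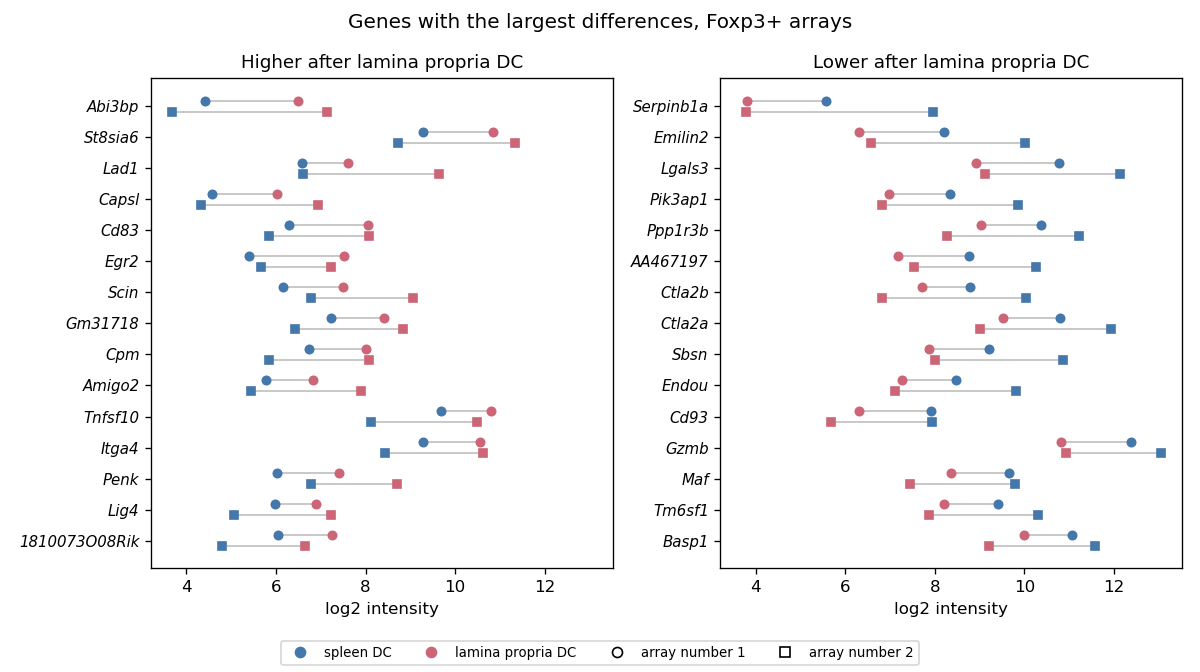
Log2 intensity in the 4 Foxp3+ arrays for the 15 largest rises (left) and the 15 largest falls (right) among genes that passed the paired test and whose groups did not overlap. Blue marks spleen DC and red lamina propria DC, circles array number 1 and squares number 2, and grey lines join arrays of the same number. Cd83 sat at 8.06 and 8.08 after lamina propria DC, and in falls such as Lgals3 and Serpinb1a the gap was wider in the number 2 arrays.

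Of 14 tested retinoid enzymes, receptors and targets, 0 passed in either direction (median difference 0.02). Ccr9, the gut-homing chemokine receptor, read 3.99 and 3.79 after lamina propria DC and 4.16 and 3.91 after spleen DC, all near background, but 10.39 and 8.27 with retinoic acid. Cyp26b1, the enzyme that breaks retinoic acid down, read 6.43 and 6.54 against 6.40 and 6.50, and 9.31 and 9.02 with retinoic acid. Asb2, a ubiquitin ligase subunit, gave 6.12 and 6.43 against 6.08 and 6.58, and 8.29 and 8.43 with retinoic acid. In each of these 3 genes the readings of both DC cultures overlapped, and both retinoic acid arrays stood apart. Lamina propria DC arrays fell short of the retinoic acid arrays by -2.68 ± 0.14 for Cyp26b1 and by -2.08 ± 0.14 for Asb2. Limma adjusted p was 0.00105 and 0.016 even without the number block. For Ccr9 the gap was at least -5.44 ± 0.40, as the low arrays lie near background (limma adjusted p = 0.023 without the block). Ccr9 lay below the medians on all 4 compared arrays, and its high retinoic acid arrays met the filter on low values. Its p-value therefore adds no support beyond the readings. Dhrs3, a retinal reductase, lay between: 7.38 and 7.05 after lamina propria DC, 6.96 and 6.49 after spleen DC, and 8.84 and 9.33 with retinoic acid. Its DC difference of 0.49 ± 0.21 did not pass (limma adjusted p = 0.245). The receptor gene Rarb did not separate the groups (6.46 and 6.12 against 6.46 and 6.04), and the retinol dehydrogenase Rdh10 (0.79 ± 0.22, adjusted p = 0.0947) did not pass.

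Itga4, the alpha4 chain of the gut-homing integrin, was the 1 of 12 gut-homing and mucosal genes to pass (8.33%, against 1.17% of all genes). It read 10.55 and 10.62 after lamina propria DC, 9.29 and 8.44 after spleen DC, and 10.90 and 11.06 with retinoic acid. The rise of 1.72 ± 0.26 (3.29-fold, limma adjusted p = 0.0266) brought it to within -0.39 ± 0.26 of the retinoic acid arrays (limma adjusted p = 0.576). Averaged over its probe sets, the rise was 0.69 and did not pass (limma adjusted p = 0.072). The partner chain Itgb7 read 10.41 and 10.40 against 10.47 and 10.28. Itgae, which encodes CD103, was 11.38 and 10.65 against 10.46 and 7.37, a difference of 2.10 ± 0.58 (limma adjusted p = 0.0924). It passed without the number 1 spleen array (2.80, adjusted p = 0.0489) and was 1.40 without the low number 2 spleen array (adjusted p = 0.664). None of the 12 lymph node and skin homing receptors passed (median 0.14).

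**Figure D2:**
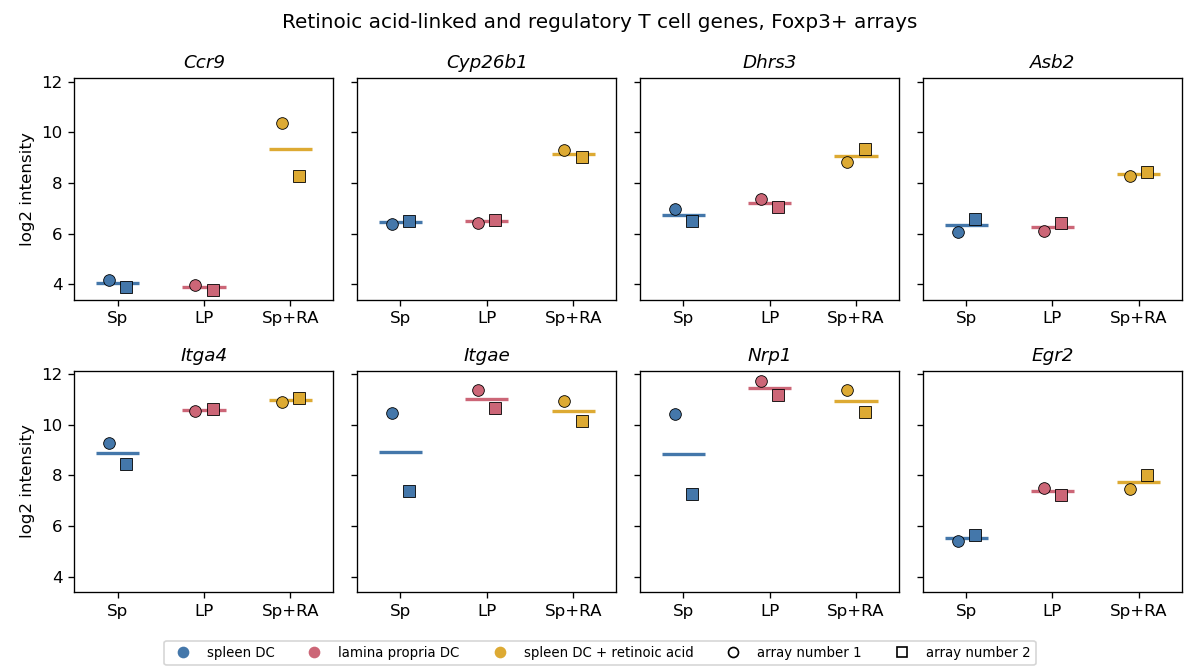
Log2 intensity of 8 genes in Foxp3+ cells raised with spleen DC (Sp), lamina propria DC (LP) and spleen DC plus retinoic acid (Sp+RA); circles are array number 1, squares number 2, and bars the mean of 2 arrays. Ccr9, Cyp26b1 and Asb2 are high with added retinoic acid alone, Dhrs3 is in between. Itga4 after lamina propria DC lies just below the retinoic acid arrays, and Egr2 overlaps them with 1 of 2 arrays.

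In the promoter windows of RefSeq (GRCm38.p6, 250 bases before to 50 after a start, 32851 windows), the retinoid half-sites AGGTCA and GGTTCA, on either strand, occur in 16.3% and 10.4%. Neither was found in the windows of Itga4, Ccr9, Cyp26b1 or Dhrs3, which describes these letters in these windows and nothing further.

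Of 30 tested Treg signature genes 3 rose (10%, against 1.17% of all genes) and 2 fell (6.67%, against 0.642%). Differences lay above 0 in 19 of the 30, and the median was 0.20. Beside Cd83, the opioid precursor gene Penk rose by 1.64 ± 0.25 and the matrix protein gene Ecm1 by 0.70 ± 0.14. Both read higher on number 2 arrays (Penk 7.40 and 8.70 against 6.03 and 6.78). The inhibitory receptor Ctla4 was level at 12.59 and 12.28 against 12.55 and 12.32. The IL-2 receptor gene Il2ra differed by 0.74 ± 0.41 (limma adjusted p = 0.379). Entpd1 read lower, at 7.75 and 7.21 against 8.33 and 8.32 (-0.84). Nrp1, a semaphorin co-receptor, read 11.74 and 11.18 against 10.43 and 7.25, a wide difference of 2.62 ± 0.63 that did not pass (adjusted p = 0.063). Gpr83 differed by 1.48 ± 0.37 (adjusted p = 0.0707) and Myb, a transcription factor of effector Treg cells, by 2.13 ± 0.56 (adjusted p = 0.0784). In Nrp1, Gpr83 and Itgae alike the number 2 spleen array was the lowest of the 4. The number 2 spleen array of Foxp3- cells was low as well for Nrp1 (6.64, beside 9.08 on number 1) and Itgae (6.72, beside 10.12). Within the TGF-beta response list, 1 of 22 rose and 1 fell (4.55% each, against 1.17% and 0.642% of all genes). The receptor Tgfbr1 rose from 9.85 and 9.27 to 10.77 and 10.81 (1.23 ± 0.19, limma adjusted p = 0.0279), while the signal mediator Smad3 was level (0.12 ± 0.12).

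Several effector genes fell. Lgals3, which encodes galectin-3, read 8.91 and 9.13 against 10.78 and 12.13 and fell by 2.43 ± 0.26 (limma adjusted p = 0.0124). The retinoic acid arrays read 8.69 and 9.49, close to the lamina propria ones. Gzmb, the protease granzyme B, read 10.81 and 10.93 against 12.38 and 13.05, a fall of -1.84 ± 0.20 (3.59-fold, limma adjusted p = 0.0124). For Gzmb the retinoic acid arrays read 12.23 and 12.76, near the spleen DC ones. Nkg7, a protein of cytotoxic granules, fell by 1.70 ± 0.23, from 11.66 and 11.78 to 10.43 and 9.62. Gzmb and Nkg7 were the 2 of 14 granzyme and cytotoxic genes to pass (14.3%, against 0.642% of all genes). The summed intensity of 10 CD8 T and NK cell markers was 2377 to 2594 after lamina propria DC and 4871 to 5528 after spleen DC, but Nkg7 is one of them. Without Nkg7 the sums were 1216 and 1591 after lamina propria DC and 1629 and 2013 after spleen DC. Of 6 tested markers 1 fell (Nkg7), Cd8a was 5.35 and 4.68 against 6.04 and 5.62, and Klrd1 differed by -0.39. The part of such cells in these falls was not tested.

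Among transcription factors, Maf, a driver of Th2 and IL-10 expression, fell by 1.83 ± 0.22, from 9.66 and 9.80 to 8.36 and 7.45 (limma adjusted p = 0.0211). Nfil3 fell by 1.68 ± 0.29 and the hypoxia factor Epas1 fell by 1.06 ± 0.22. With Maf these were the 3 of 13 Th2 list genes to pass (23.1%, against 0.642% of all genes), none a Th2 cytokine. Il4 (-0.44) and Il10 (-0.82) did not pass, nor did Gata3 (0.48). Id2, an inhibitor of E-protein binding to DNA, fell by 1.65 ± 0.30, from 10.08 and 11.39 to 9.09 and 9.08. Prdm1, which encodes the effector factor Blimp-1, fell by 0.86 ± 0.18. Of the Th1 list Gzmb was the 1 of 14 to pass (7.14%). Tbx21 (-0.76 ± 0.31) and Ifng did not, the latter at 5.15 and 5.52 against 6.14 and 7.60 (-1.54 ± 0.39, limma adjusted p = 0.0733), and Il17a differed by -0.20.

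The largest fall was that of Serpinb1a, an inhibitor of neutrophil serine proteases. It read 5.58 and 7.96 after spleen DC and 3.81 and 3.78 after lamina propria DC, near background, so that its fall of -2.97 ± 0.59 is a lower bound in size. Ctla2a and Ctla2b, paired inhibitors of cysteine proteases whose probe sets could share signal, fell as well, with differences of -2.11 ± 0.33 and -2.13 ± 0.43. The cystatin Cst7, in none of the lists and picked after its values were seen, fell by 1.23 ± 0.24. S100a6, a calcium-binding protein, read 11.78 and 11.13 against 12.87 and 12.15 (-1.06 ± 0.14), and the membrane-binding Anxa2 fell by 1.14 ± 0.20. With Lgals3 these were 3 of 17 S100, annexin and galectin genes (17.6%, against 0.642% of all genes), whose median was -0.45. Further large falls were those of the matrix glycoprotein Emilin2 (-2.66), the signalling adaptor Pik3ap1 (-2.19), the glycogen phosphatase subunit Ppp1r3b (-2.15), AA467197 (-2.15), Sbsn (-2.10), Endou (-1.96), Tm6sf1 (-1.82) and Basp1 (-1.71). Cd93 fell by 1.92, but another of its probe sets moved the other way. Among all genes that passed, 11 of the 139 rises and 2 of the 76 falls had such a probe set above the lowest array median. The 76 falls had a median of -1.12, and in 75 of them the groups did not overlap, against 18.5% of all tested genes in this direction.

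Cholesterol synthesis was the list with the most calls. Of 24 tested sterol and fatty acid genes 7 fell (29.2%, against 0.642% of all genes), 0 rose, and only 2 of the 24 had a difference above 0. The median was -0.51 against 0.01 over all genes. Pmvk, phosphomevalonate kinase, read 8.68 and 8.44 against 10.01 and 10.39 and fell by 1.64 ± 0.21 (3.12-fold, limma adjusted p = 0.0211). Mvd, which makes isopentenyl diphosphate, read 7.0 and 7.23 against 7.83 and 8.42 (-1.01 ± 0.16). Fdps, farnesyl diphosphate synthase, fell by 1.11 ± 0.22 and Fdft1, squalene synthase, fell by 0.94 ± 0.17. Lss, lanosterol synthase, read 8.81 and 8.21 against 9.69 and 9.80 (-1.24 ± 0.23). Nsdhl, a late demethylation enzyme, fell by 0.72 ± 0.14 and the sterol carrier gene Stard4 fell by 0.84 ± 0.17. Hmgcs1 (-0.58), Sqle (-0.72), Cyp51 (-0.73) and Dhcr7 (-0.62) pointed the same way and did not pass. Mvk was level (-0.02) and Insig1 went the other way (8.83 and 8.29 against 8.76 and 7.78, 0.29), and neither passed. The fatty acid genes Scd1 (-0.55), Scd2 (-0.47), Acly (-0.26), Fasn (-0.09) and Acaca (0.07) did not pass either. In the Foxp3- arrays the list's median was -0.58. Abca1, the cholesterol exporter, rose by 1.25 ± 0.25, and Dgat2, which makes triglyceride, by 1.09 ± 0.16, both outside the list and picked after their values were seen. The count of sterol falls was 8 after quantile normalization, 4 with arrays centred, 1 with all probe sets averaged, and 5, 0, 3 and 0 without the number 1 and 2 lamina propria and the number 1 and 2 spleen arrays, with medians between -0.35 and -0.62 throughout.

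The promoters of this pathway are shown because its genes moved together. SREBP-2, the sterol-sensing factor, is known to work beside NF-Y, which binds the letters CCAAT. That motif was chosen after the falls were seen. On either strand it occurs in 37.4% of all windows and in 17 of the 23 windows held for 18 genes of the list. The sterol element string TCACNCCAC was searched as well and occurs in 1.24% of all windows. It was absent from every window of Pmvk, Mvd, Lss and Nsdhl, and present in that of Hmgcs1, which did not pass. No window was held for Fdps, Fdft1 and Stard4, which fell, or for Sqle, Scd1 and Scd2, which did not pass. Below are the windows with a match of the other 4 genes that fell, 5′ to 3′ on the gene's strand, RefSeq GRCm38.p6, with CCAAT or its reverse complement ATTGG in capitals. They lie at chr3:89454291-89454590 (+, Pmvk), chr8:122443373-122443672 (-, Mvd), chr10:76531355-76531654 (+, Lss) and chrX:72918271-72918570 (+, Nsdhl). Each spans the upstream flank and the first transcribed bases.
Pmvk: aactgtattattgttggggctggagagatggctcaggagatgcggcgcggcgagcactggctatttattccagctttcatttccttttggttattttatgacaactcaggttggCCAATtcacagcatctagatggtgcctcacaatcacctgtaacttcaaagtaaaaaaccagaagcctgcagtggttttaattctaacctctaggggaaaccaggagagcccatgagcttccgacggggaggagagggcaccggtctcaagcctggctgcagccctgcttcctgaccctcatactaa
Mvd: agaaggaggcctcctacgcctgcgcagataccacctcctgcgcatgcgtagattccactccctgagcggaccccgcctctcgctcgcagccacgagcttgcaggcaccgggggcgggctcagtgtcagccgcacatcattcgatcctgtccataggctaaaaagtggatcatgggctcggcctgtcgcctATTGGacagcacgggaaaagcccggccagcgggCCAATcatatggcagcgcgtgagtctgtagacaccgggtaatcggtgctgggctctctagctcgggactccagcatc
Lss: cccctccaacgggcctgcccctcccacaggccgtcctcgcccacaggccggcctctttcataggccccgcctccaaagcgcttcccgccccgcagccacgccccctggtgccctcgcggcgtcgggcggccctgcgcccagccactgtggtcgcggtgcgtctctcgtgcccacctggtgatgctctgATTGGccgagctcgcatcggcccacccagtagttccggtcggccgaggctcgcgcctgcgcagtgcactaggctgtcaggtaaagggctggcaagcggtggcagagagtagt
Nsdhl: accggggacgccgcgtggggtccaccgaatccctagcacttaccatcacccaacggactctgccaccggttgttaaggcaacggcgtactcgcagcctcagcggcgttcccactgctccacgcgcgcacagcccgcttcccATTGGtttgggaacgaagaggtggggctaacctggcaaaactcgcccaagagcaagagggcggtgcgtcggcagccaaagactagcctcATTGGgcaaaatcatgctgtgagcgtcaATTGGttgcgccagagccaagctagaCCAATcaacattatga
Pmvk and Lss hold 1 match each, Mvd 2 in opposite orientations and Nsdhl 4. The first match begins 136, 60, 62 and 109 bases before the start of Pmvk, Mvd, Lss and Nsdhl. A second Pmvk window, at another annotated start, has none. A match is a string and not a measured site, and binding was not measured.

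Of 29 tested glycolysis and hypoxia-inducible genes 2 fell (6.9%, against 0.642% of all genes) and 0 rose, the median was -0.58, and 2 of the 29 lay above 0. Aldoc, an aldolase, read 10.75 and 10.60 against 11.74 and 11.98 (-1.19 ± 0.18, limma adjusted p = 0.0259), and Pfkp, a phosphofructokinase, fell by 0.96 ± 0.20. The oxygen-sensing hydroxylase Egln3 read 11.34 and 11.02 against 12.13 and 12.76 and did not pass (-1.27 ± 0.28, adjusted p = 0.0558). Nor did Pgam1 (-0.89), Aldoa (-0.70) and the peptide hormone gene Adm (-1.52). In all 6 of these genes the gap was wider in the number 2 arrays. Without the number 1 and 2 lamina propria arrays 6 and 0 of the list fell, with medians of -0.78 and -0.30, and without the number 1 and 2 spleen arrays 3 and 0, with medians of -0.66 and -0.35. Metallothioneins did not pass (Mt1 -1.5, limma adjusted p = 0.0537, and Mt2 -1.68, adjusted p = 0.0637), and neither did any of 36 cell cycle genes (median -0.19) or 29 respiratory chain genes (-0.05).

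**Figure D3:**
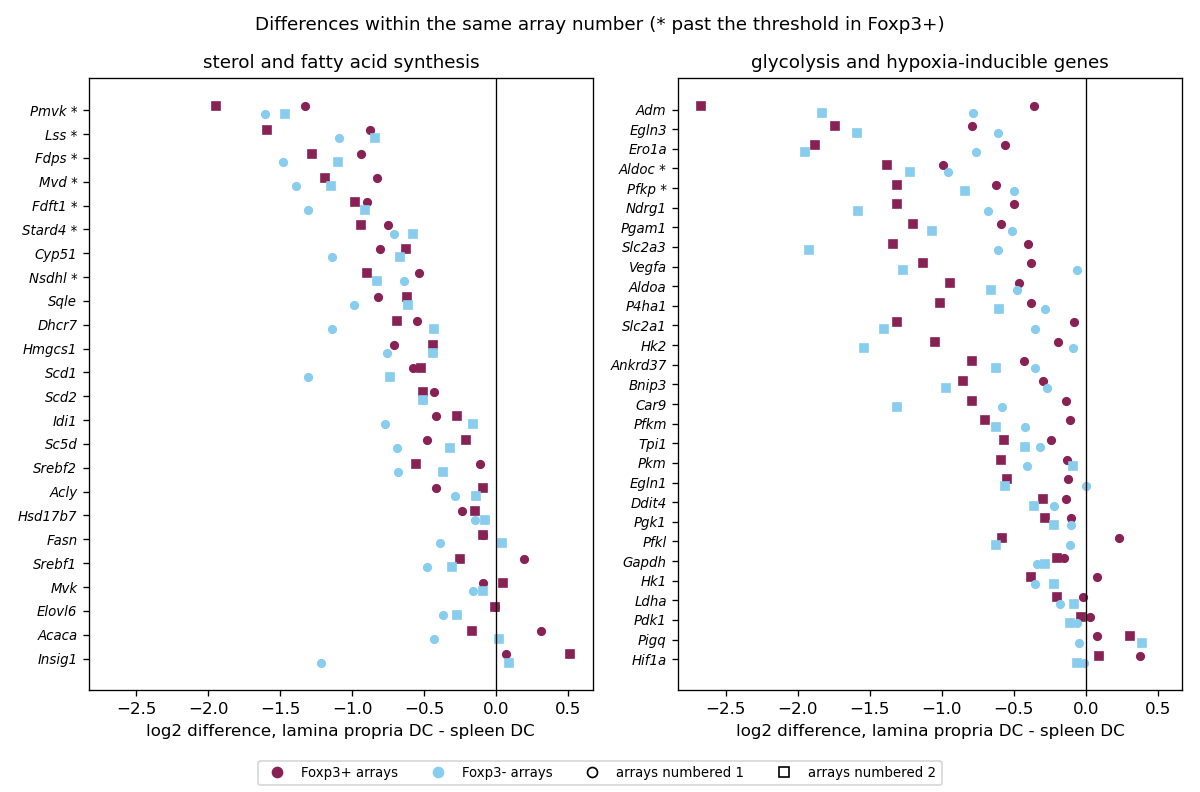
Log2 difference between lamina propria DC and spleen DC cultures within array number 1 (circles) and number 2 (squares), for the genes of 2 lists, in Foxp3+ (purple) and Foxp3- (light blue) arrays; an asterisk marks genes that passed the paired test in Foxp3+ cells. Most points lie left of 0 in both lists and both fractions, with 7 of 24 sterol genes and 2 of 29 glycolysis and hypoxia genes past the threshold.

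Of 34 tested interferon-stimulated genes 2 rose (5.88%, against 1.17% of all genes) and 0 fell. Differences lay above 0 in 27 of the 34, beside 50.9% of all genes, and the median was 0.41. Gbp2, a guanylate-binding GTPase, read 9.40 and 10.81 against 8.77 and 9.60 (0.92 ± 0.16), and Iigp1, an immunity-related GTPase, 9.41 and 10.38 against 8.87 and 8.87 (1.03 ± 0.22, limma adjusted p = 0.0499). Retinoic acid arrays were far lower in both, at 7.39 and 8.72 for Gbp2 and 6.99 and 7.78 for Iigp1. The RNA sensor Ifih1 differed by 1.11 and did not pass (adjusted p = 0.0609). Without the number 1 and 2 lamina propria arrays the list's median was 0.71 and 0.13, with 3 and 0 rises and 1 and 0 falls. Without the number 1 and 2 spleen arrays it was 0.49 and 0.28, with 5 and 0 rises and no falls.

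Foxp3- cells from the same kinds of culture share no array with the Foxp3+ comparison, though they do share the array numbers. There too no gene passed unpaired (794 with an unadjusted p under 0.05), and 102 passed in the paired limma test (0.861%), 25 higher (0.211%) and 77 lower (0.65%). Across genes the difference by DC source correlated between fractions (Pearson 0.71, Spearman 0.59, 11846 genes that are not independent), and 68.2% had the same sign. All 76 genes that fell in Foxp3+ cells were also lower in Foxp3- cells, by a median of -0.93, and 23 of them passed there, among them Gzmb (-1.89), Pmvk (-1.54) and Mvd (-1.28). Of the 139 that rose 123 were also higher, by a median of 0.46, and 9 passed, Egr2 (1.58), Il7r (1.04) and St8sia6 (2.80) among them.

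The test of the gap between fractions called 0 genes, paired or unpaired (434 and 108 with an unadjusted p under 0.05 in limma). Cd83 had the lowest adjusted p, with a DC difference 1.90 ± 0.22 larger in Foxp3+ than in Foxp3- cells (adjusted p = 0.0911). Without the number 1 lamina propria Foxp3+ array, Cd83 (2.08), Lad1 (2.87) and Scin (2.03) passed, each with limma adjusted p = 0.0466. The tubulin gene Tubb2b came next (gap 1.59 ± 0.20, adjusted p = 0.0915). In Foxp3- cells it fell by 1.88, from 8.12 and 8.95 to 6.38 and 6.93, while Foxp3+ cells read 8.61 and 8.94 against 8.75 and 9.39. The phosphatase gene Dusp4 differed by 0.94 in Foxp3+ and -1.08 in Foxp3- cells, and Maf by -1.83 and -0.23, and neither passed the test of the gap.

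**Figure D4:**
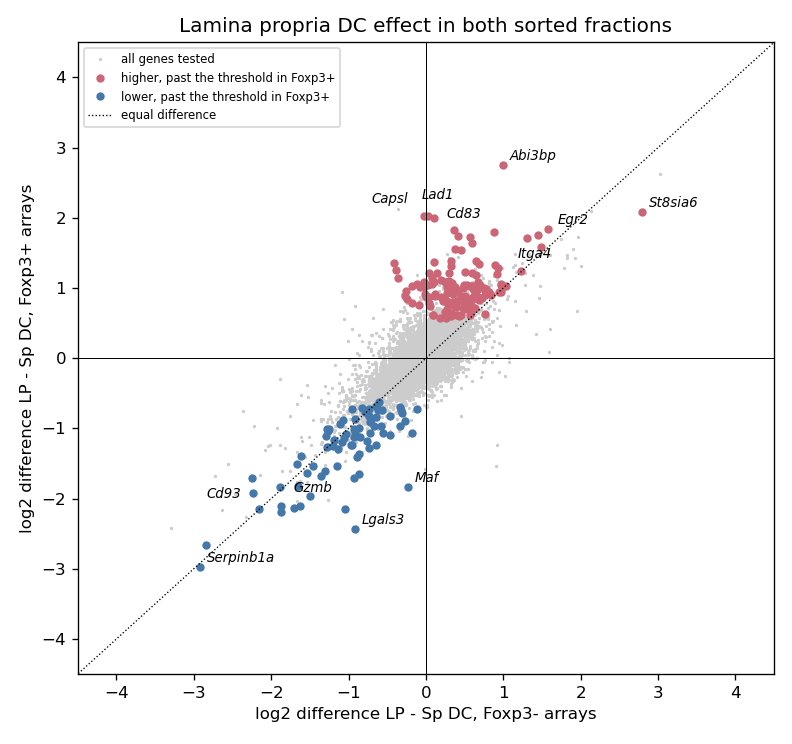
Log2 difference between lamina propria DC and spleen DC cultures in Foxp3- arrays (horizontal) against Foxp3+ arrays (vertical), one point per tested gene; red and blue mark the 139 genes that rose and the 76 that fell in Foxp3+ cells. All blue points lie left of 0, while Cd83, Lad1 and Capsl sit near 0 on the horizontal axis.

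Foxp3+ cells raised with lamina propria DC were also set against those raised with spleen DC and retinoic acid. Of 11846 genes 11 passed even unpaired (0.0929%) and 222 with the number block (1.87%), 132 higher (1.11%) and 90 lower (0.76%) after lamina propria DC. Beside Ccr9, Cyp26b1 and Asb2, the unpaired test called 4 genes lower after lamina propria DC: the guanine deaminase Gda (7.03 and 7.43 against 9.94 and 9.83), Cracdl (-2.49), the casein gene Csn2 (-2.18) and Grtp1 (-1.72). It called 4 higher. The interferon-induced membrane proteins led, Ifitm3 with 12.04 and 12.29 against 7.43 and 7.49 (4.70 ± 0.53, limma adjusted p = 0.0342 unpaired) and Ifitm1 with 11.27 and 10.57 against 7.42 and 7.07 (3.68 ± 0.23, adjusted p = 0.00312). Il6ra, the IL-6 receptor, was 8.69 and 8.53 against 5.69 and 5.77, and the ephrin gene Efna5 differed by 1.70. For Ifitm1, Ifitm3 and Il6ra the spleen DC arrays without retinoic acid read 11.87 and 11.48, 12.20 and 10.66, and 8.09 and 7.42, near the lamina propria arrays. Genes of the main comparison can be set beside this one, with the lamina propria arrays shared. Mmd, which rose over spleen DC, was lower than with retinoic acid (11.27 and 10.88, beside 9.84 and 9.67 with spleen DC and 12.10 and 11.65 with retinoic acid). Gzmb (-1.62 ± 0.20) and Ctla2a (-2.18 ± 0.33), which fell against spleen DC, were also called lower than with retinoic acid in the paired test. Mmd, in none of the lists, was picked after its values were seen.

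Of 36 gene lists 15 held no called gene in the paired test, with medians from -0.26 to 0.17. These were the retinoid, lymph node homing, cell cycle, respiratory chain and metallothionein lists given above, STAT and SOCS genes, aryl hydrocarbon receptor targets, vitamin D and PPAR targets, amino acid response genes, housekeeping genes, T cell identity genes, DC and macrophage markers, MHC class II genes, and gamma delta T cell and erythroid markers. Summed DC markers were 1709 to 1722 after lamina propria DC and 1937 to 1957 after spleen DC, and MHC class II genes 2875 to 2896 and 3320 to 3831. Of the 11 tested DC and macrophage markers 0 had a difference above 0, beside 50.9% of all genes, and the median was -0.14. In 36.4% of them the lamina propria arrays lay below both spleen arrays, against 18.5% of all genes. In 4 lists of other cell types 1 gene passed. Nkg7 of the CD8 T and NK cell list is given above. Bank1 of the B cell list rose by 1.05 (list sums 2754 to 2935 and 1980 to 2196), Ltf of the granulocyte list rose by 1.06 (609 to 676 and 520 to 532), and Cdh1, the adhesion gene of epithelia, fell by 1.41, from 7.0 and 7.54 to 5.93 and 5.79 (5528 to 6851 and 7634 to 10542 for gut epithelial and stromal markers). Most of the gut epithelial and stromal sum came from Vim (12.19 and 12.55 against 12.69 and 13.09). Likewise, most of the B cell sum came from Ighm (11.01 and 11.15 against 10.62 and 10.43). These sums therefore mainly follow single genes. The part of other cells in the results was not tested.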

How the data were processed

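Gene expression was measured on Affymetrix M430v2 arrays, and the authors pooled mice before sorting, per the series' design text. The deposited values are linear intensities that the authors computed with RMA in GenePattern, per the submitters' processing notes and design text; no source used here names its version or says which arrays it was run on together. They ran from 4.058 to 27165 for 45101 probe sets. From the deposited intensities the log2 was taken, with no pseudocount or further normalization. The platform's gene table gave 1 symbol to 34958 probe sets, several to 932 and none to 9211, and those with 1 symbol were used. For each gene the probe set of highest mean over the 17 arrays was taken (cross-hybridizing sets passed over where another existed), and tested where above the array median on at least 2 co-culture arrays, which kept 11846 of 18194 genes. A group with both arrays below 4.89 was called near background.

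One limma 3.58.1 model (R 4.3.3) with 1 coefficient per group was fitted to the 11 co-culture arrays, without the array number as designed (5 residual degrees of freedom) and with it as a block (4). Benjamini-Hochberg adjustment ran over all genes tested. Arrays with the same number paired: residual correlations were 0.45 to 0.75 over 10 pairs of groups, and no label says what the number marks. Named genes are the 15 largest paired rises and falls whose groups do not overlap, called members of 36 gene lists, and genes of retinoid, Treg and effector biology; others are marked as picked later. The members and lists were chosen with earlier results of these data known. With 2 arrays per group, the number of arrays limits precision. Alternatives covered normalization, filter, pseudocount, probe set choice, variance model and arrays left out.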

Additional observations from a re-analysis of the deposited data

How the results depend on the processing

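Of the 215 genes called with the replicate block, none turned its direction under any alternative tried. The count was 0 without the block, 418 after quantile normalization (213 of the 215 among them), 129 with array medians centred, 142 on log2 of the value plus 32, 16 with the mean of all probe sets and 0 with the 4 compared arrays alone; the last 3 of these, and the filter and variance settings with the block (191 to 285), were chosen after seeing the data. Leaving out one array gave 2 to 451 calls. Rises were 64.7% of calls in the paired fit, 56.7% after quantile normalization, 71.3% with medians centred and 38.7% without the number 1 lamina propria array. The unpaired count of 0 became 215 with the block and stayed 0 under all other settings run. For Foxp3- cells the paired 102 calls became 0 without the block, 243 after quantile normalization and 0 to 85 with one array left out. The test between fractions gave 0 under all settings run except 3 calls with one array left out (range 0 to 3). Against the retinoic acid arrays the unpaired 11 calls became 222 with the block, 17 after quantile normalization, 6 with the compared groups alone and 3 to 6 with one array left out; the paired 222 became 11 without the block and 45 to 198 with one array left out. With one array left out, signs turned for named genes that had not passed, whose ranges were Acaca (-0.22 to 0.36), Ccr9 (-0.53 to 0.23), Ctla4 (-0.05 to 0.05), Cyp26b1 (-0.03 to 0.11), Fasn (-0.27 to 0.08), Rarb (-0.17 to 0.24), Asb2 (-0.19 to 0.08) and Itgb7 (-0.08 to 0.14). With the block, Ctla4 turned to 0.06 under quantile normalization, Ctla4 turned to 0.00 under array medians centred, Acaca turned to -0.10 under mean of all probe sets and Ccr9 turned to 0.00 under mean of all probe sets. The cause of these changes was not tested, apart from the fewer arrays in the fits that left some out. The number of arrays, 2 per group, limits what could be called.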
